A study of Mus musculus with 120 samples.

Results

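The SLC25 family is the largest group of carriers in the inner mitochondrial membrane. Its members exchange metabolites, nucleotides, coenzymes and phosphate between the matrix and the cytosol, and a few of them sit in other membranes. In the liver they link mitochondrial oxidation to pathways that run partly in the cytosol, among them fatty acid synthesis from exported citrate, the malate-aspartate shuttle and the urea cycle. The genes described here are the rows whose symbol is Slc25a followed by a number, without Slc25a20, that occur once in the table and have a mean of at least 0.5 over all columns. Of 46 such symbols, 38 reached that mean and are called members below, among 13287 genes tested with the same minimum. The rule used the overall level and no contrast.

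RNA was sequenced from livers of 10 strains of the Collaborative Cross, a panel of recombinant inbred mice bred from genetically diverse founders. They were CC060, CC003, CC011, CC013 and CC019, together with CC032, CC040, CC041, CC042 and CC043. Females and males of each strain received, for 12 weeks, either an HF/HS diet, rich in fat and sucrose and meant to induce obesity, with 42% of its energy from milkfat, 0.2% cholesterol and over 30% sucrose, or a control diet of matched ingredients that was low in fat and reduced in sucrose. The 40 groups of strain, sex and diet held 3 libraries each, 120 in all. A pair of columns from CC040 females, control 3 and HF/HS 1, held identical values and were left out, which leaves 118 libraries, 59 on each diet. No transgene or induced mutation is named, ages are not given in the sources used here, and the labels do not state whether each library in a group is a different mouse. A p-value here therefore reflects only how far these libraries spread, which may be technical.

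Values are FPKM-like (fragments per length of transcript and library size) and were rescaled by the authors so that the upper quartile is about 10 in each library. They are divided by gene length, so that levels of different genes can be set side by side. Read totals cannot be read from this unit, but the steps between low values give depth after the authors' scaling, relative to the first CC011 female control library. It was between 0.066 and 0.118 in CC003 and between 0.705 and 1.458 in the other strains, so low values of CC003 are the least precise. The median relative depth was 0.924 for control and 0.925 for HF/HS libraries. Control male library 3 of CC060 stood apart, holding the highest value of 9 members and the lowest of 5. Livers were checked by markers: 12 hepatocyte genes summed to between 37140 and 168500 in every library, against 96.45 to 2023 for 12 macrophage genes and 173.3 to 375.6 for 9 endothelial genes. Albumin (Alb) is listed at 0 in 53 of 59 control and 49 of 59 HF/HS libraries, which can be a failed estimate for a very abundant transcript. No member is listed at 0 in any of the 118 libraries.

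Mean levels of the 38 members ran from 0.629 for Slc25a35 to 504 for Slc25a5, as the plot of levels by role shows. Slc25a5, the ADP/ATP carrier that dominates in most non-muscle tissues, was highest, with a mean of 504 ± 72.3 (SD, n = 118 libraries). Its muscle-type counterpart Slc25a4 was far lower, at 8.33 ± 3.07 (SD, n = 118). Slc25a47, a carrier known for its near restriction to liver, came next at 458 ± 202 and ranged from 93.0 to 1216, so that its libraries overlapped those of Slc25a5. Slc25a39, which supplies the matrix with glutathione, had a mean of 276 ± 54.9 (SD, n = 118), and its paralog Slc25a40 one of 2.31 ± 0.644. The ornithine carrier Slc25a15 of the urea cycle stood at 215 ± 74.1 (SD, n = 118). The phosphate carrier Slc25a3 had a mean of 231 and ranged from 166.7 to 471.0, and the citrate carrier Slc25a1 had one of 158 and ranged from 56.9 to 355. These neighbours in rank overlapped from library to library.

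**Figure D1:**
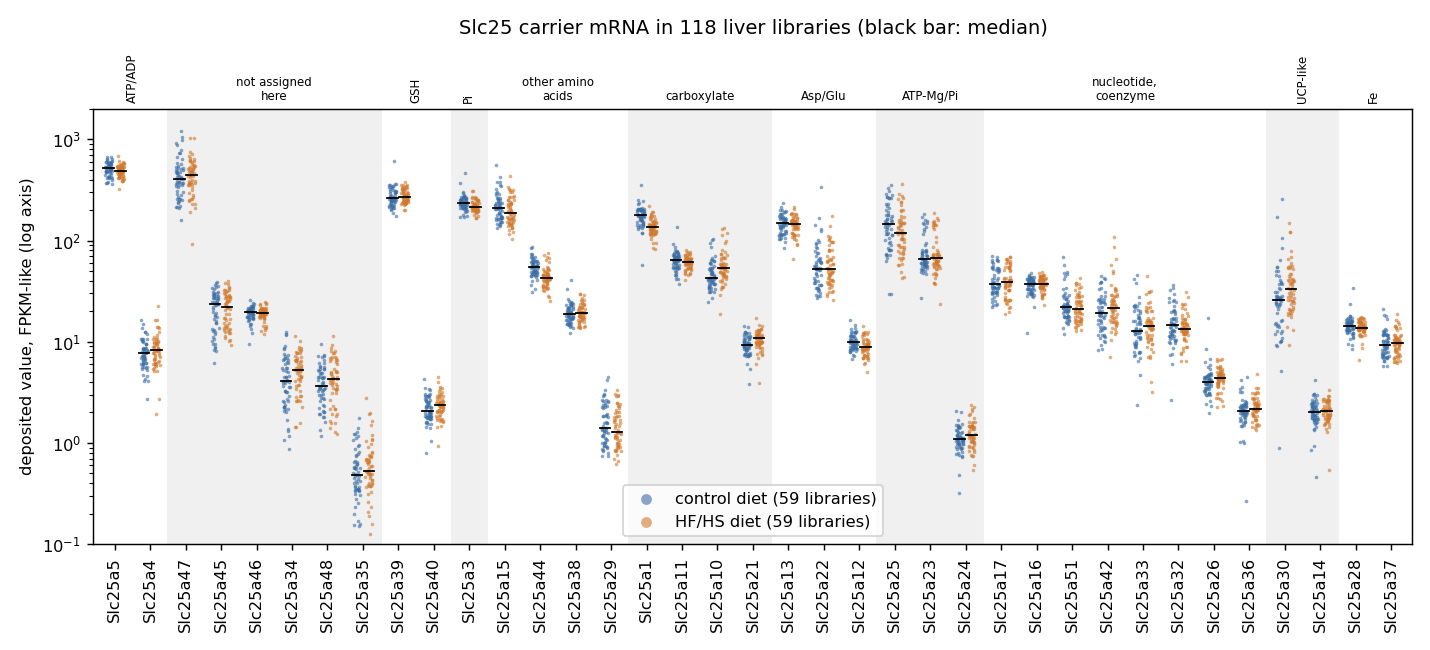
Deposited values (FPKM-like, log axis) of the members in 59 control-diet and 59 HF/HS libraries, grouped by role; each point is a library and the black bar is the median. Slc25a5 and Slc25a47 lie near the top, and Slc25a35 near the minimum of 0.5 used to choose members.

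Relatives within a role differed in level to varying degrees. Among aspartate and glutamate carriers, Slc25a13 (citrin, the liver form) had a mean of 147, Slc25a22 (a glutamate carrier) 62.2 and Slc25a12 (aralar) 9.59. Of the calcium-regulated ATP-Mg/phosphate carriers, Slc25a25 had a mean of 144, Slc25a23 79.8 and Slc25a24 1.20. Slc25a17, a carrier of coenzyme A, FAD and related cofactors in the peroxisomal membrane, had a mean of 41.1 among the 9 nucleotide, coenzyme and vitamin carriers, close to that of Slc25a16 at 37.0. In the iron pair, Slc25a28 (mitoferrin-2) had a mean of 14.3 and Slc25a37 (mitoferrin-1, the erythroid form) 10.00. Just inside the minimum, Slc25a35 had a mean over all columns of 0.627 and Slc25a24 of 1.21. Just outside it were Slc25a2, a second ornithine carrier, at 0.474 and the brain-type uncoupling protein Slc25a27 at 0.458. The other 6 symbols below the minimum were Slc25a53, Slc25a31, Slc25a18, Slc25a43, Slc25a41 and Slc25a54, and Slc25a54 is listed at 0 in 117 of 118 libraries. Below the minimum no test was run.

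The first comparison asked how the HF/HS diet changed the carriers over all strains and both sexes. The citrate carrier Slc25a1 and the branched-chain amino acid carrier Slc25a44 fell most, and the dicarboxylate carrier Slc25a10, the coenzyme A carrier Slc25a42 and the uncoupling-protein-like Slc25a30 rose. In limma on log2(value + 1), 14 of 38 members passed a Benjamini-Hochberg adjusted p of 0.05 (36.8%), 8 higher and 6 lower on the HF/HS diet. Of all genes tested, 31.3% were called, 16.7% higher and 14.6% lower, so the members' share lies near the background. Without CC041 the count was 8 (25.7% of all genes), and without the libraries numbered 3 of HF/HS males it was 9 (26.8% of all genes). With each strain as 1 unit it was 9 (15.8% of all genes). The median difference was 0.02 over the members and 0.00 over all genes, on the log2 scale. In bulk tissue, fewer cells of a type and less RNA per cell cannot be told apart.

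Start-site windows are shown for the carriers with large diet differences in each direction, Slc25a1 among those that fell and Slc25a10, Slc25a30 and Slc25a42 among those that rose, since they allow the sequence at which these genes start to be read beside their values. Each holds the 250 bases before the RefSeq start (GRCm38.p6, the same coordinates as mm10), 5′ to 3′ on the gene's strand. Capitals mark matches, on either strand, to CCAAT (read as ATTGG on the other strand) and to the E-box CACGTG.
Slc25a1, chr16:17928220-17928469, minus strand: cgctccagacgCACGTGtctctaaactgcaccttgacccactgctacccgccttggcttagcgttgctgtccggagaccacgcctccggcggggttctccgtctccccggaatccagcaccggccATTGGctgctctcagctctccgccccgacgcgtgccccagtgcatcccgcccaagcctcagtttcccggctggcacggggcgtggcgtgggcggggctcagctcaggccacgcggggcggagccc
Slc25a10, chr11:120491587-120491836, plus strand: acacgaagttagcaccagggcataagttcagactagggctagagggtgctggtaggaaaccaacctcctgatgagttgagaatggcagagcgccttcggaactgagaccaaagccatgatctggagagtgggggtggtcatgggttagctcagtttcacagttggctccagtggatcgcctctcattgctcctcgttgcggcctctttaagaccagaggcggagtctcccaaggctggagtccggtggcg
Slc25a30, chr14:75787038-75787287, minus strand: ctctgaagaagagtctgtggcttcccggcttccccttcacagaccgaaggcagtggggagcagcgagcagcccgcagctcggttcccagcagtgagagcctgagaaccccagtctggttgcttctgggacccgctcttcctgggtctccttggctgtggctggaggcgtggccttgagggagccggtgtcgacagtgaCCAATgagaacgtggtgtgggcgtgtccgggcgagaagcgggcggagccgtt
Slc25a42, chr8:70212282-70212531, minus strand: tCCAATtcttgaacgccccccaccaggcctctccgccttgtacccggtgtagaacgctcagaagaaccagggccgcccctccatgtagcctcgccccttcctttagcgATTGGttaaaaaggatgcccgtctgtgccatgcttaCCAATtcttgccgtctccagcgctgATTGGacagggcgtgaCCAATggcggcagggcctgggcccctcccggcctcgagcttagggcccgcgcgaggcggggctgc

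The Slc25a1 window held an E-box 239 bases and a CCAAT match 125 bases before the start, and the Slc25a42 window 5 CCAAT matches. The Slc25a30 window held 1 CCAAT match, and neither word was in the Slc25a10 window. RefSeq windows were matched for 30 members (39 windows). CCAAT was in 20 of these 39 windows, against 33.9% of all 32851 windows, and CACGTG in 7 of 39, against 6.02%. Windows of 1 gene can overlap, and the CACGTG site of Slc25a14 and the CCAAT site of Slc25a23 each lie in 2 windows. The 8 windows of members that rose held CCAAT in 4 cases and CACGTG in 0, and the 6 windows of members that fell held them in 1 and 2. A word for the sterol response element, TCACNCCAC, was in 0 of 39 windows and in 1.05% of all. GGGCGG was in 28 of 39 and 32.7%, and median GC content was 57.2% in the members' windows against 52.4% in all. These counts describe letters in the windows and nothing more.

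Slc25a1 exports citrate from the matrix to the cytosol, where ATP citrate lyase turns it into acetyl-CoA for lipid synthesis. On the control diet its values ran from 56.9 to 355, with a median of 178, and on the HF/HS diet from 82.5 to 219, with a median of 136. The diets overlapped over all libraries, but the HF/HS mean was lower in 19 of 20 strain-sex groups. The exception was CC060 females, whose control values of 56.9, 139 and 158 spread widely around HF/HS values of 139, 104 and 113. The fitted difference was -0.36 ± 0.05 (SE) on the log2 scale, with a limma adjusted p of 1.4e-09.

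Males of CC003 show the change in Slc25a1 library by library. Their control values were 205, 171 and 169 and their HF/HS values 119, 124 and 128, with no overlap. In CC042 the sexes parted: females went from 202, 209 and 176 to 135, 93.8 and 129, whereas males had 205, 199 and 200 on the control and 219, 190 and 178 on the HF/HS diet, which overlap.

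Slc25a44 brings branched-chain amino acids into mitochondria. It had a median of 54.3 on the control diet (range 31.0 to 86.5) and of 43.0 under HF/HS feeding (25.1 to 74.6), and its mean was lower on the HF/HS diet in 17 of 20 groups. The difference was -0.31 ± 0.04 (SE; limma adjusted p = 5.7e-10). In CC041 males all control values (50.8, 66.7 and 63.3) exceeded all HF/HS values (34.4, 36.3 and 35.8). CC042 again held the largest female difference, with 86.5, 84.9 and 68.7 on the control and 49.7, 45.7 and 47.1 on the HF/HS diet, while males of that strain had 49.4, 45.3 and 45.7 against 51.6, 52.3 and 46.9.

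The other carriers that fell did so by less. Slc25a12, the calcium-responsive aspartate/glutamate carrier of the malate-aspartate shuttle, had a median of 9.89 on the control and 8.95 on the HF/HS diet (difference -0.15 ± 0.03, adjusted p = 2.9e-05), and its mean was lower in 16 of 20 groups. Slc25a15 moves ornithine into the matrix for citrulline synthesis. Its median was 211 on the control and 188 on the HF/HS diet (difference -0.15 ± 0.04, adjusted p = 0.0041), also with 16 of 20 groups lower. Slc25a3 imports the phosphate used by ATP synthase, and its median went from 236 to 217 (difference -0.11 ± 0.03, adjusted p = 0.00065). For Slc25a5 the medians were 518 and 485, and its difference of -0.07 ± 0.03 passed narrowly (adjusted p = 0.042). That call was lost in 20 of 37 other settings, and under quantile normalization the difference was 0.02 with an adjusted p of 0.58. The Slc25a3 call was lost where each strain counted as 1 unit (adjusted p = 0.061).

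Slc25a10 exchanges malate and succinate for phosphate. It had a median of 42.9 on the control diet (24.9 to 104) and of 53.9 under HF/HS feeding (18.8 to 132), with a higher HF/HS mean in 16 of 20 groups. Its difference was 0.25 ± 0.05 (SE; limma adjusted p = 2.9e-05). In CC003 females, values of 31.8, 36.4 and 34.9 on the control and 54.3, 56.4 and 58.7 on the HF/HS diet did not overlap, and neither did those of CC042 males (37.4, 31.2 and 30.8 against 77.2, 64.2 and 59.01). The lowest value of all, 18.8, came from the first HF/HS female library of CC011, whose other HF/HS females read 74.1 and 81.0. An antisense gene, Gm11788, overlaps an exon of Slc25a10 in GENCODE M21, and the sources used here do not say whether reads were counted by strand.

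Slc25a42 imports coenzyme A in exchange for adenine nucleotides. Its median was 19.1 for control and 21.4 for HF/HS libraries, and its difference 0.22 ± 0.06 (adjusted p = 0.00097), with a higher HF/HS mean in 16 of 20 groups and in all 10 male groups. Its highest values of all, 110 and 86.3, came from HF/HS females of CC060, where library 1 read 50.1. The control females of that strain read 31.1, 39.0 and 44.9, below all of them.

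The largest rise was that of Slc25a30, related to uncoupling proteins, which was also the member that varied most within groups. On the control diet its values ran from 0.886 to 255 with a median of 26.0, and on the HF/HS diet from 9.20 to 149 with a median of 33.1. The difference was 0.42 ± 0.13 (SE; limma adjusted p = 0.011), with 13 of 20 groups higher. Leaving out CC041 or CC060, or the second HF/HS library of females, ended this call, as did counting strains as units. Its adjusted p ranged from 0.00025 to 0.19 over 37 settings.

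Among the remaining carriers that rose, Slc25a34, whose substrate is not assigned here, had medians of 4.06 and 5.30 (difference 0.24 ± 0.09, adjusted p = 0.038). The oxodicarboxylate carrier Slc25a21 had medians of 9.19 and 10.8 (0.15 ± 0.04, adjusted p = 0.0028). Slc25a48 and Slc25a24 had differences of 0.12 and 0.09, with adjusted p-values of 0.047 and 0.048. The calls of Slc25a34 and Slc25a48 were lost in 17 and 23 of 37 settings. Slc25a24, a low member with a mean of 1.195, was not followed through the other settings for diet. Among abundant members that did not pass were Slc25a47 (0.03 ± 0.08, adjusted p = 0.81), Slc25a39 (0.04 ± 0.02, adjusted p = 0.16) and Slc25a13 (-0.03 ± 0.04, adjusted p = 0.61). Of these, Slc25a39 passed in 6 of 37 other settings, among them quantile normalization and leaving out control male library 3 of CC060. Slc25a25 had a larger estimate that did not pass, -0.22 ± 0.11 (adjusted p = 0.11). It passed without CC060, alone or together with CC003.

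**Figure D2:**
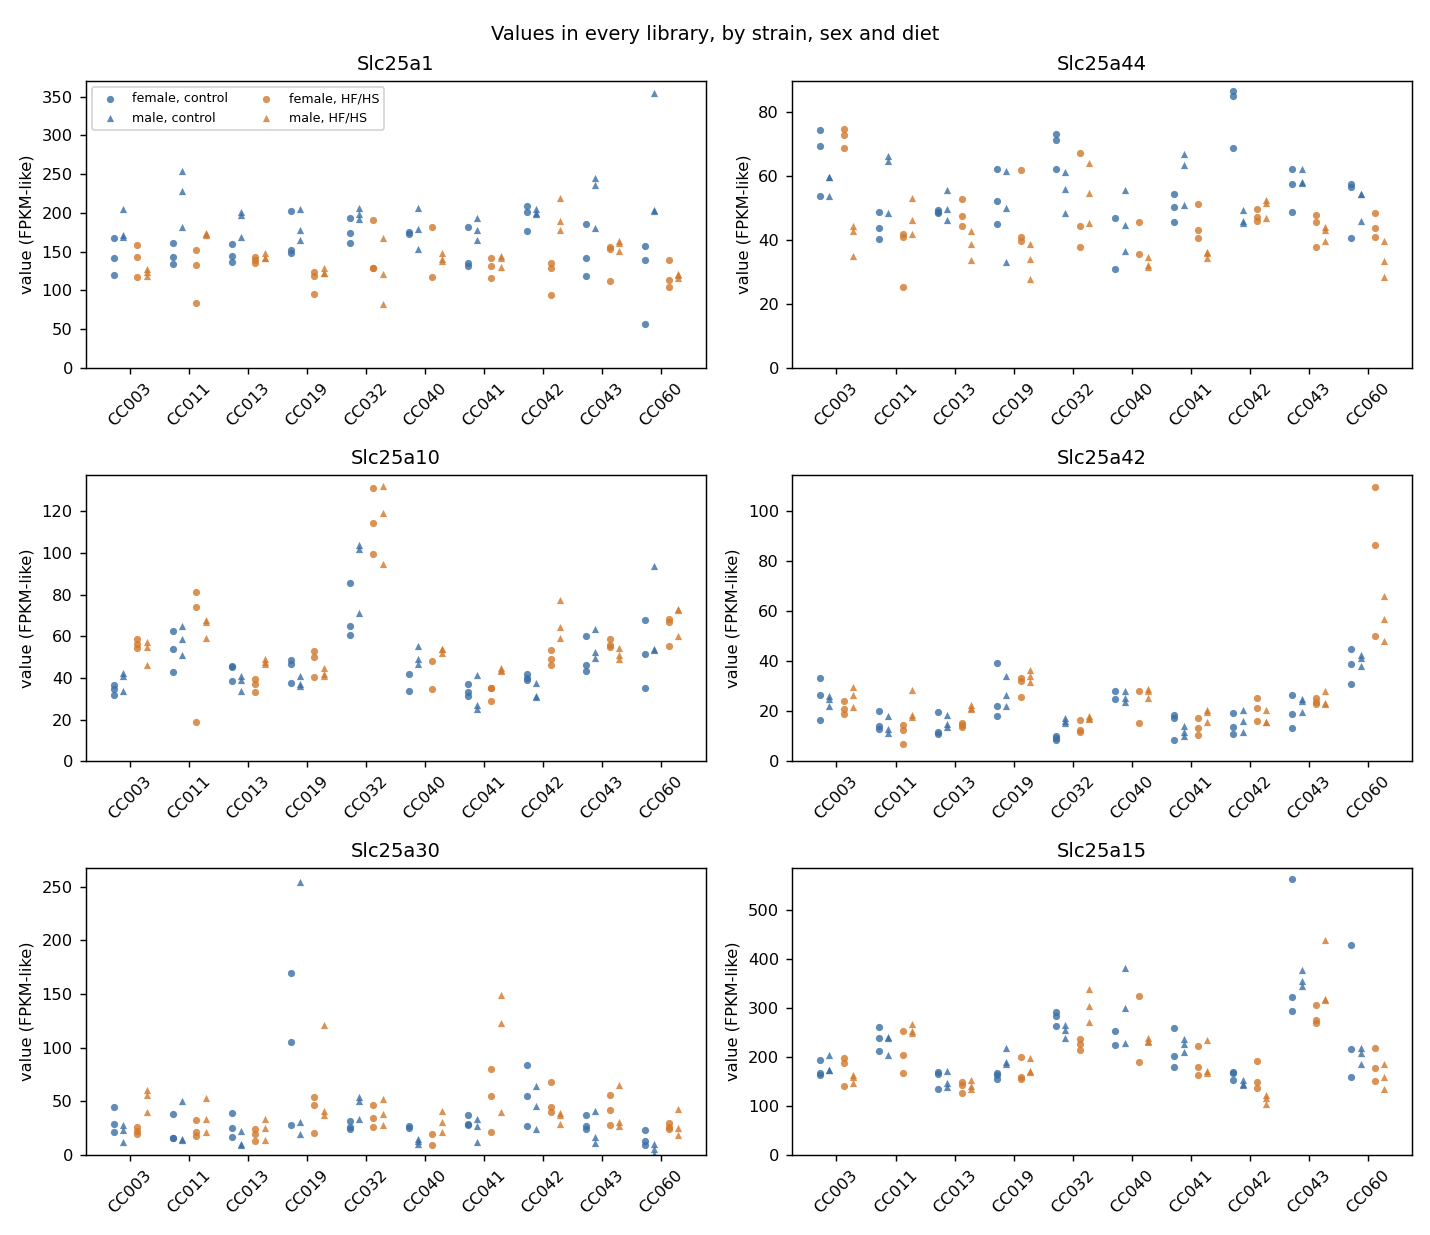
Values (FPKM-like, axes from 0) of 6 carriers in every library by strain, with circles for females, triangles for males, blue for the control and orange for the HF/HS diet. Orange points lie mostly below blue ones for Slc25a1 and Slc25a44 and mostly above them for Slc25a10, and CC060 holds the highest values of Slc25a42.

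Sex-specific fits asked whether females and males changed alike. In females 4 of 38 members passed (10.5%; 16.7% of all genes were called, 9.15% higher and 7.53% lower), with Slc25a10 higher at 0.21 ± 0.07 (adjusted p = 0.031) and Slc25a1, Slc25a44 and Slc25a3 lower at -0.23 ± 0.07, -0.22 ± 0.06 and -0.10 ± 0.04 (adjusted p = 0.0087, 0.0023 and 0.045). In females the Slc25a3 call was lost in 16 of 37 settings (adjusted p up to 0.31), that of Slc25a10 in 10 (up to 0.26), and those of Slc25a1 and Slc25a44 in 2 each, without CC042 and with strains as units. Without CC042 the count in females was 0, without CC043 it was 2, without CC060 it was 7, and with strains as units it was 0. Shares of all genes called in females are not given for these settings. For diet over all strains they were 26.1%, 25%, 34.9% and 15.8% in that order, against 31.3% in the main fit. In males 10 passed (26.3%; 20% of all genes were called, 10.6% higher and 9.37% lower), 6 higher and 4 lower. Slc25a30 rose by 0.89 ± 0.19, Slc25a10 by 0.30 ± 0.07, Slc25a42 by 0.29 ± 0.08 and Slc25a21 by 0.18 ± 0.06 (adjusted p = 0.00016, 0.00066, 0.0038 and 0.014). Slc25a1 fell by 0.48 ± 0.06, Slc25a44 by 0.39 ± 0.05, Slc25a12 by 0.20 ± 0.04 and Slc25a3 by 0.11 ± 0.04 on the log2 scale (adjusted p = 7.7e-09, 2.0e-08, 0.00014 and 0.016). With strains as units 4 passed in males, and the share of all genes for males in that setting is not given. The male calls of Slc25a21 and Slc25a3 were lost in 7 and 6 of 37 settings. The coenzyme A-related carrier Slc25a16 and the pyrimidine nucleotide carrier Slc25a36 also rose in males.

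The difference between the sexes itself passed for 0 of 38 members (0.858% of all genes were called), and 7 members had an unadjusted p under 0.05. In limma with library weights 4 members passed, where 801 of 13287 genes were called, against 114 in the main fit. Slc25a30 came nearest, with a male minus female diet difference of 0.94 ± 0.27 (limma adjusted p = 0.065), followed by Slc25a16 (0.16 ± 0.06, adjusted p = 0.24) and Slc25a1 (-0.25 ± 0.09, adjusted p = 0.24). Male Slc25a30 had a median of 20.8 on the control and 37.6 on the HF/HS diet, and female Slc25a30 medians of 27.2 and 25.8. In CC060 males the values were 5.16, 9.85 and 0.886 on the control and 25.2, 18.5 and 43.0 on the HF/HS diet, without overlap. A single control male of CC019 read 255 while the other two read 30.9 and 19.2, which shows the spread that limits this gene.

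**Figure D3:**
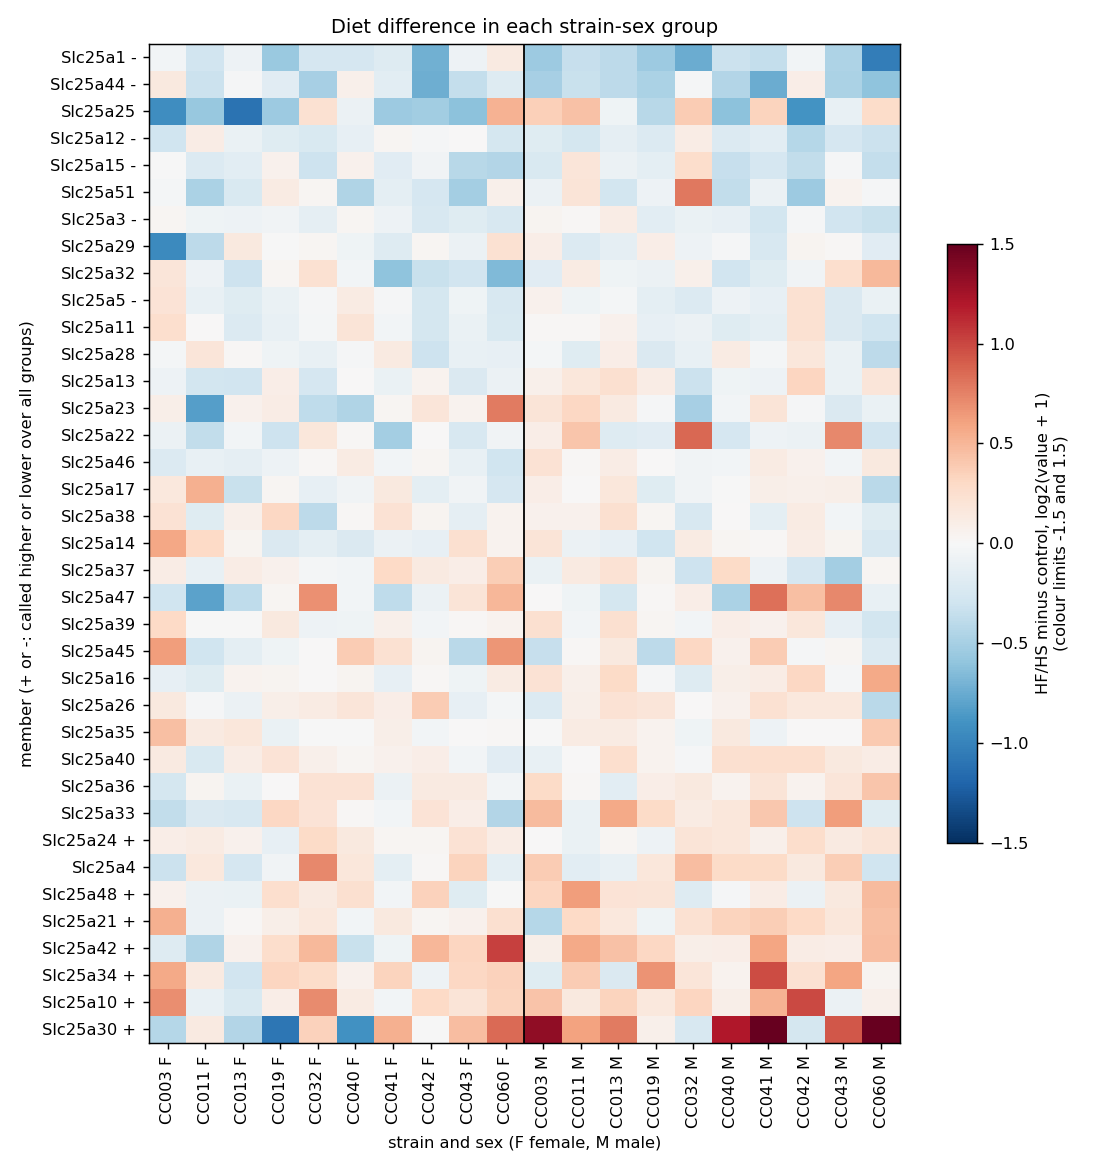
HF/HS minus control difference of group means on the log2(value + 1) scale for the members (rows, ordered by the overall difference; + and - mark members called higher or lower) in 10 female and 10 male groups, with colours limited at -1.5 and 1.5. Slc25a1 is blue in 19 of 20 groups, and Slc25a30 differs in sign between groups.

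Within single strains, 23 member-strain pairs passed. CC060 had 10 (26.3% of members; 12.3% of all genes were called), among them Slc25a30 (1.67 ± 0.41, adjusted p = 0.0036), Slc25a42 (0.74 ± 0.17, adjusted p = 0.0019) and Slc25a1 (-0.45 ± 0.14, adjusted p = 0.027). The Slc25a30 call was lost with library weights (1.08, adjusted p = 0.096) and without the 3 libraries most often at an extreme (1.18, adjusted p = 0.094), and the Slc25a1 call in 9 of 34 other settings. Without control male library 3 of CC060 the Slc25a1 difference there was -0.32 with an adjusted p of 0.20. With all libraries of CC060, the Slc25a1 difference of group means was 0.13 in females and -1.03 in males. CC032 had 5 (13.2%; 5.47% of all genes), led by Slc25a4 at 0.59 ± 0.17 (adjusted p = 0.018) and Slc25a1 at -0.50 ± 0.14 (adjusted p = 0.022). CC003 had 4 (10.5%, and 10.5% of all genes), including Slc25a10 at 0.56 ± 0.15 (adjusted p = 0.0094). Slc25a29, a carrier of basic amino acids, was at -0.43 ± 0.13 there (adjusted p = 0.024), a call lost in 7 of 34 settings. Its difference of group means in CC003 was -0.95 in females and 0.10 in males. Slc25a29 is low, with a mean of 1.62 over all libraries used, and low values of CC003 are the least precise. In CC019 only Slc25a1 passed among members (-0.55 ± 0.14, adjusted p = 0.032; 0.835% of all genes), in CC041 and CC043 only Slc25a44 (-0.45 ± 0.12 and -0.42 ± 0.12, adjusted p = 0.019 and 0.024; 4.04% and 5.74% of all genes) and in CC042 only Slc25a10 (0.64 ± 0.15, adjusted p = 0.0046; 4.3% of all genes). CC011, CC013 and CC040 had 0, where 0.233%, 0.399% and 0.467% of all genes passed. The Slc25a1 calls in CC019 and CC032 were lost in 9 and 5 of 35 settings, the Slc25a44 calls in CC041 and CC043 in 4 and 5, and the Slc25a4 call in CC032 in 2. The Slc25a10 calls in CC003 and CC042 were kept in all settings that give a value. An F test of whether the diet difference varied between strains called 0 of 38 members (6.04% of all genes), and 6 had an unadjusted p under 0.05. Its lowest adjusted p was that of Slc25a17 (0.073), then Slc25a39 (0.10), Slc25a38 (0.13) and Slc25a30 (0.14). Of 36 other settings, Slc25a39 passed this test in 5, among them without control male library 3 of CC060. Slc25a17 passed in 3, Slc25a30 in 2 and Slc25a38 in 1. In limma with library weights 22 members passed this F test, and the share of all genes for it in that setting is not given. For another test, diet over all strains, that setting called 47% of all genes, against 31.3% in the main fit.

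The comparison of males with females was made on each diet. Slc25a17, the peroxisomal cofactor carrier, had the lowest adjusted p on both: on the control diet females had values from 22.3 to 49.4 (median 31.8) and males from 30.0 to 70.0 (median 51.7). In each of the 10 strains every control male lay above every control female. The male minus female difference was 0.56 ± 0.04 (SE; limma adjusted p = 9.8e-20) on the control diet and 0.56 ± 0.04 (adjusted p = 1.4e-19) on the HF/HS diet, where males lay above females without overlap in 8 strains and the mean was higher in all 10. In CC011 the HF/HS females reached 64.8, 54.3 and 39.6, close to the males at 65.9, 66.0 and 51.1.

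Over the family, 18 of 38 members differed by sex on the control diet (47.4%; 42.1% of all genes were called, 23.2% higher and 18.9% lower in males), 8 higher in males and 10 higher in females. Slc25a1 was higher in males, with medians of 199 in males and 158 in females, a higher male mean in 10 of 10 strains and a difference of 0.37 ± 0.07 (adjusted p = 1.8e-06). Slc25a37 (0.28 ± 0.05, adjusted p = 8.6e-06), Slc25a48 (0.20 ± 0.07, adjusted p = 0.013) and Slc25a39 (0.18 ± 0.03, adjusted p = 1.2e-06) were also higher in males, as were Slc25a45 and the glycine carrier Slc25a38. Higher in females were Slc25a30 (-0.52 ± 0.19, adjusted p = 0.021), Slc25a34 (-0.44 ± 0.13, adjusted p = 0.0039), Slc25a25 (-0.36 ± 0.15, adjusted p = 0.049) and the folate and FAD carrier Slc25a32 (-0.35 ± 0.08, adjusted p = 0.00034). Slc25a34 had a higher female mean in 10 of 10 strains, though single libraries overlapped in 9 of them. The NAD carrier Slc25a51, the glutamate carrier Slc25a22, Slc25a4, Slc25a36, Slc25a24 and Slc25a29 completed the female-higher set. The call of Slc25a25 was lost in 22 of 37 settings and that of Slc25a30 in 9.

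On the HF/HS diet 14 members differed by sex (36.8%; 44.5% of all genes, 23.8% higher and 20.8% lower in males), 10 higher in males and 4 in females. Beside Slc25a17, males were higher in Slc25a33, a pyrimidine nucleotide carrier (0.46 ± 0.12, adjusted p = 0.00081), with medians of 15.8 against 12.5, and in Slc25a48 (0.32 ± 0.07, adjusted p = 7.7e-05) and Slc25a16 (0.24 ± 0.04, adjusted p = 3.1e-06). Females were higher in Slc25a34 (-0.37 ± 0.13, adjusted p = 0.015), Slc25a24 (-0.21 ± 0.05, adjusted p = 0.00081), Slc25a44 (-0.20 ± 0.05, adjusted p = 0.0016) and Slc25a36 (-0.13 ± 0.05, adjusted p = 0.025). The Slc25a36 call was lost in 10 of 37 settings (limma adjusted p up to 0.19), that of Slc25a34 in 5, of Slc25a44 in 3 and of Slc25a48 in 1. Slc25a1 had a sex difference of 0.13 ± 0.07 here that did not pass (adjusted p = 0.11). Whether a sex difference changes with diet is the same contrast as the sex difference in diet response, which called no member. Females also had more macrophage and endothelial marker RNA: 8 of 12 macrophage markers and 8 of 9 endothelial markers were higher in control females, with summed macrophage levels of 251.4 to 1745 in control females and 189.1 to 883.6 in control males. Other markers were higher in males. Of 2 red blood cell markers tested, Alas2, the erythroid enzyme of heme synthesis, was higher in males (2.198 ± 0.10, limma adjusted p = 7.6e-34 on the control diet), while the globin gene Hbb-bs had a difference of -0.31 that did not pass. Summed red blood cell markers had a median of 128.9 in control males, against 37.99 in control females, and ranged from 15.06 to 1229 and from 7.142 to 559. This stands beside the higher male level of Slc25a37. Of 4 bile duct markers, Sox9 and Spp1 were higher in males on both diets. The part of these cell types in the sex differences of the carriers was not tested.

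**Figure D4:**
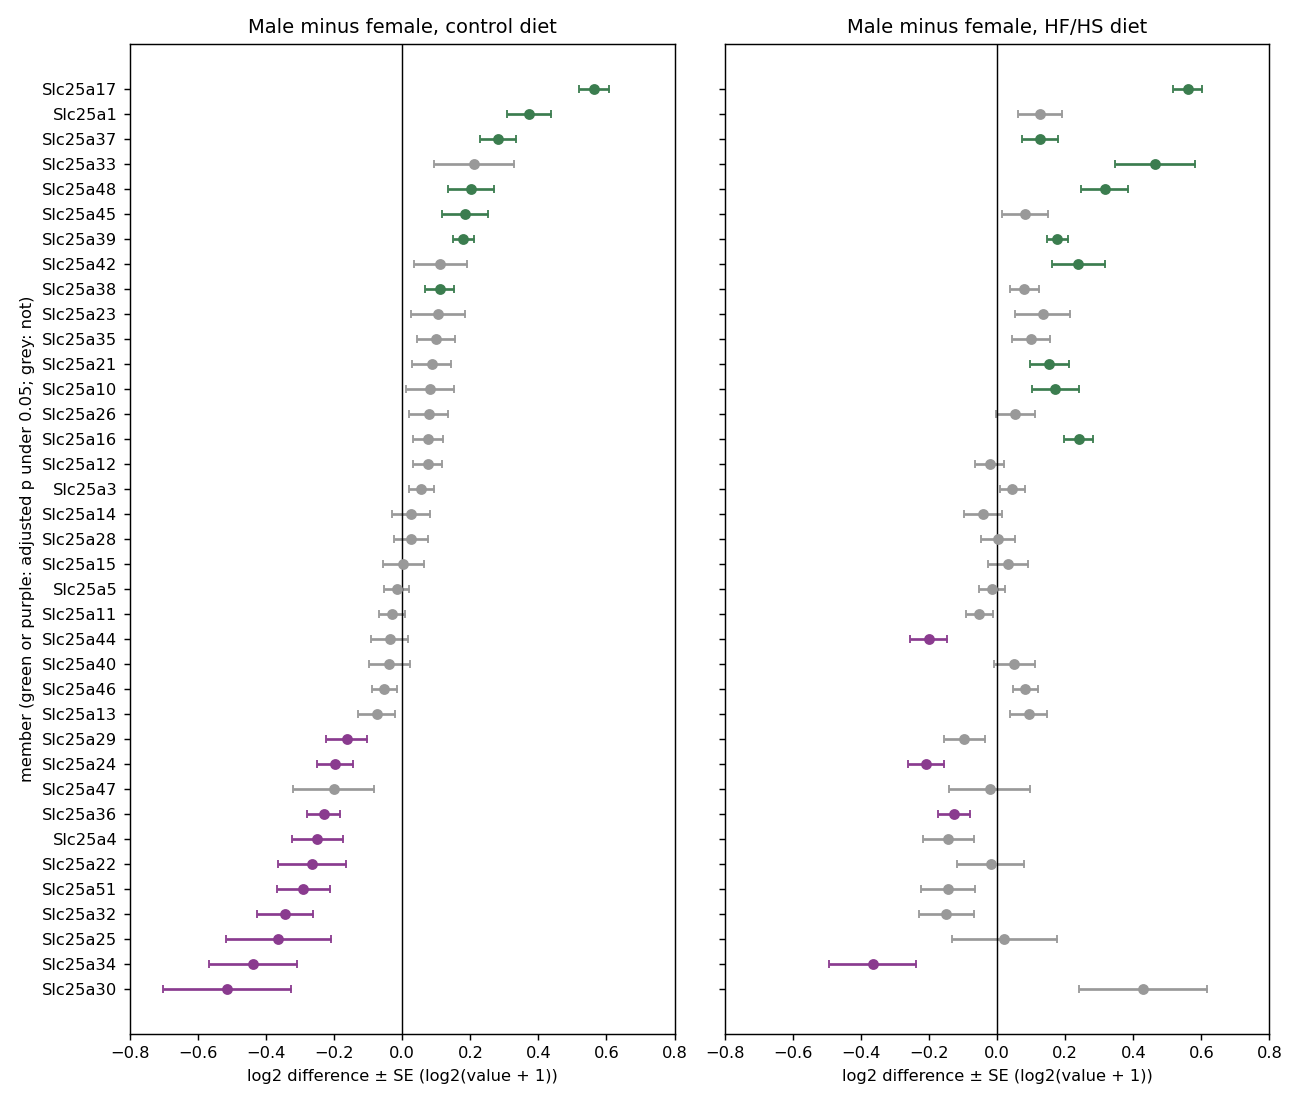
Male minus female difference ± SE on the log2(value + 1) scale for the members on the control diet (left) and the HF/HS diet (right), with green for higher in males, purple for higher in females and grey for members that did not pass. Slc25a17 lies at 0.56 on both diets, and Slc25a30 lies at -0.52 on the control and 0.43 on the HF/HS diet, where it did not pass.

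Strains were compared on the control diet without CC003, whose scaled depth is far lower, and CC060, whose libraries stand apart most often. Among the 8 other strains 33 of 38 members differed (F test in limma, 86.8%; 85.5% of all genes were called). With all 10 strains the count was 36 of 38 (96% of all genes were called). Slc25a45, for which no substrate is assigned here, had the lowest adjusted p (8.1e-19). Its strain medians ran from 10.4 in CC041 (6.22 to 13.8) to 30.3 in CC032 (26.4 to 35.8), a 2.93-fold range, and CC040 at 12.8 lay near CC041, and CC019 at 28.4 near CC032. Strain accounted for 80.5% of its sum of squares on the log2 scale, over the libraries of these 8 strains on both diets. The values of CC041 and CC032 did not overlap.

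Slc25a15 had medians from 152 in CC042 (142 to 170) and 155 in CC013 to 263 in CC032 and 349 in CC043 (294 to 562), a 2.30-fold range (adjusted p = 4.0e-15), and strain accounted for 78.2% of its sum of squares. The lowest CC043 value, 294, exceeded the highest CC032 value, 291, by little. Slc25a17 also differed between strains (adjusted p = 7.2e-17). Since its sexes do not overlap within a strain and CC040 has 2 control females against 3 males, its levels are given by sex: CC019 had means of 24.4 in females and 34.3 in males, CC032 of 42.0 and 56.5, CC040 of 41.9 and 59.4 and CC011 of 35.5 and 60.6. Slc25a48 ranged 3.22-fold, from 1.87 in CC032 to 6.03 in CC043 (adjusted p = 1.1e-13), and Slc25a29 2.79-fold, from 0.895 in CC013 to 2.50 in CC040, of which 5 libraries were used (adjusted p = 9.5e-11). Slc25a10 was highest in CC032, at 78.3, and lowest in CC041, at 32.3 (adjusted p = 7.0e-11). Slc25a39 ranged 1.52-fold, from 226 in CC013 to 345 in CC032 (adjusted p = 3.1e-11), and Slc25a37 1.76-fold, from 6.92 in CC041 to 12.2 in CC043 (adjusted p = 2.5e-09). Other strains lay close to some of these ends. For Slc25a29 CC011 had a median of 2.485 and CC032 0.935, and for Slc25a37 CC011 11.7 and CC019 7.09. For Slc25a48 CC042 had 2.025, and for Slc25a39 CC041 had 227. Slc25a37 values of CC041 reached 10.2 and overlapped those of CC043, which began at 7.715.

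Strain order was not shared by the carriers. CC032 was highest of the 8 strains for Slc25a45, Slc25a10 and Slc25a39 and lowest for Slc25a48. The 5 members whose strain difference did not pass were Slc25a1 (adjusted p = 0.61), Slc25a28, Slc25a14, Slc25a24 and Slc25a35. For Slc25a1, strain accounted for 6.4% of the sum of squares, diet for 30.7% and sex for 12.9%. CC060 and CC003 entered the count over all 10 strains but not the shares of the sum of squares, and are marked in the plot of control-diet values. In 1 control female of CC060, Slc25a45 read 9.51, against 28.9 and 26.8 in the other two.

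**Figure D5:**
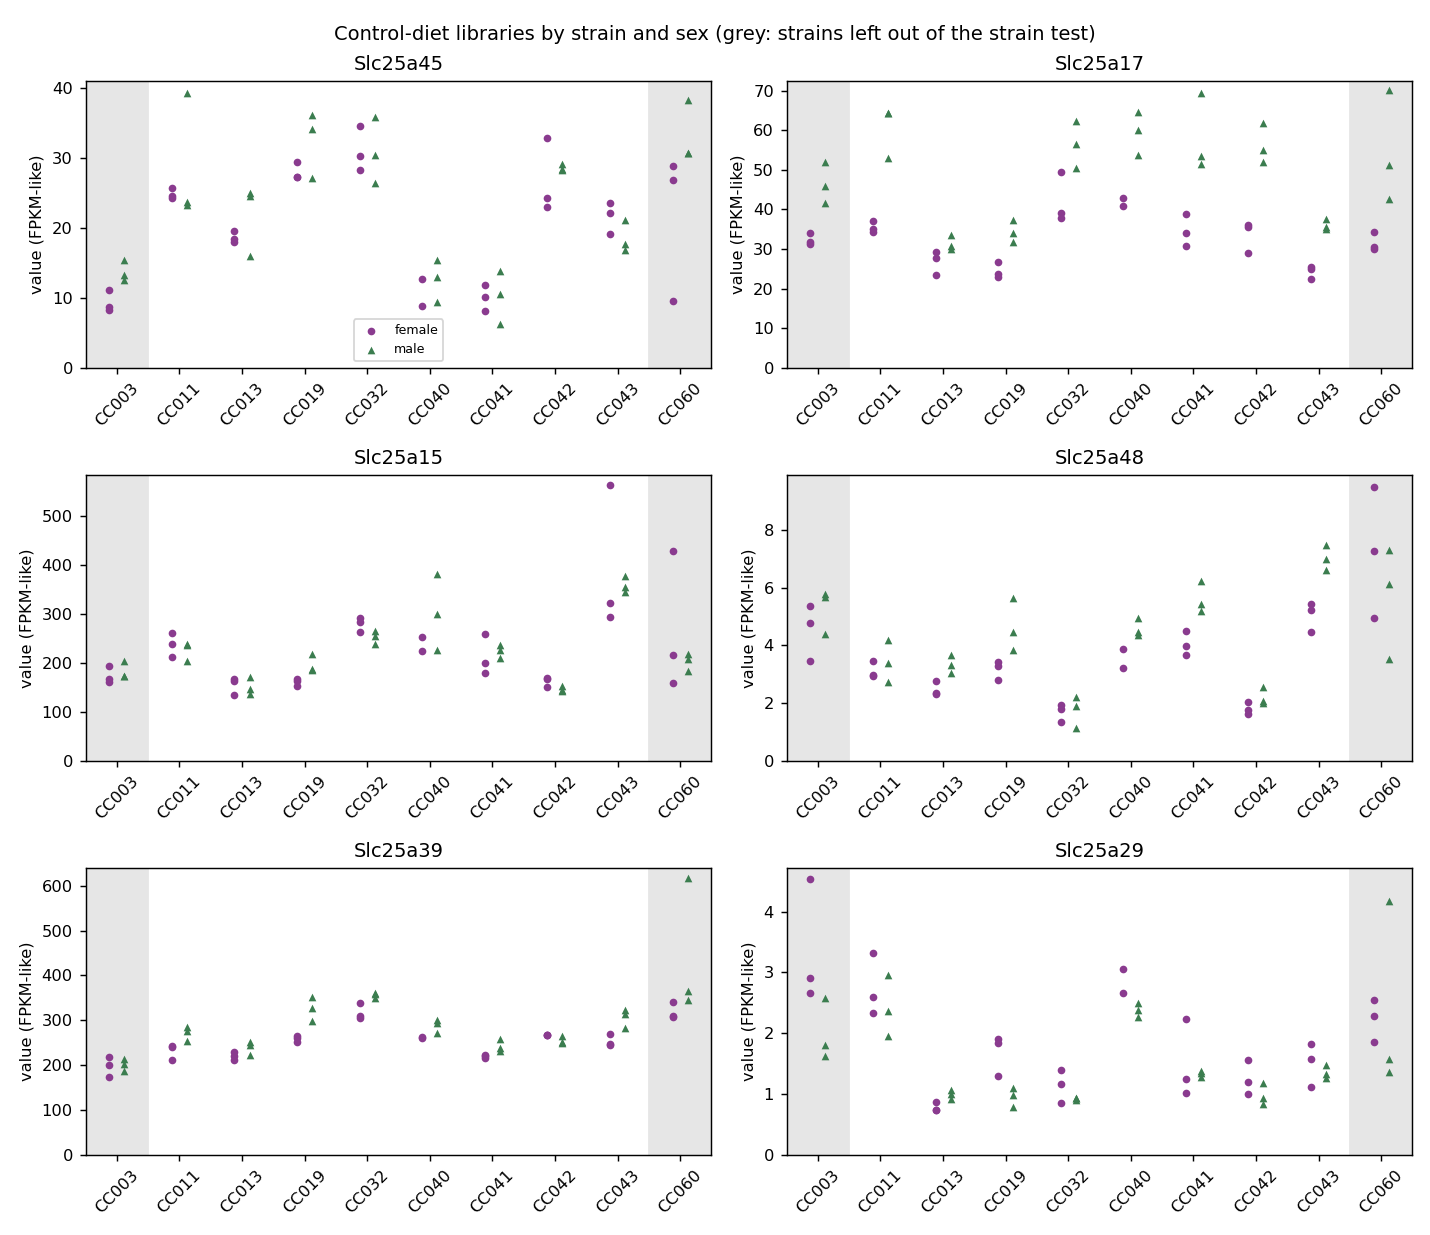
Control-diet values (FPKM-like, axes from 0) of 6 carriers by strain, with purple circles for females and green triangles for males; grey bands mark CC003 and CC060, left out of the strain test. Slc25a45 lies low in CC040 and CC041, Slc25a15 high in CC043, and Slc25a17 males lie above females in every strain.

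Of the 38 members, 10 passed none of the diet tests over all strains or within a sex and neither sex test: Slc25a11, Slc25a13, Slc25a14, Slc25a23, Slc25a26, Slc25a28, Slc25a35, Slc25a40, Slc25a46 and Slc25a47. The oxoglutarate carrier Slc25a11, the malate-aspartate shuttle partner of the aspartate/glutamate carriers, had a diet difference of -0.06 ± 0.03 (limma adjusted p = 0.068). The S-adenosylmethionine carrier Slc25a26 had one of 0.06. These differences are small beside those of Slc25a1 and Slc25a44, and a p above the threshold does not show that the diets had equal levels. In GENCODE M21, exons of 13 members overlap another gene, on the opposite strand in 11 cases, Slc25a10, Slc25a11, Slc25a21 and Slc25a25 among them, and Slc25a5 has a named pseudogene, so reads of these members could be shared.

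Spread within groups set what could be seen. The residual SD on the log2 scale had a median of 0.222 over the members and 0.197 over all genes tested. Slc25a30 (0.723), Slc25a25 (0.596), Slc25a34 (0.499), Slc25a47 (0.465) and Slc25a33 (0.459) varied most from library to library, and Slc25a39 least (0.112). The 3 libraries of 1 group could differ widely for Slc25a30, as in the CC019 control males given above.

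Genes that work beside the carriers gave the following counts over all strains and both sexes on the HF/HS diet. Of 15 citrate export and shuttle enzymes, 4 rose and 4 fell: the ATP citrate lyase gene Acly had a mean of 332 on the control and 183 on the HF/HS diet (-0.98 ± 0.14, adjusted p = 2.1e-08), and the isocitrate dehydrogenase gene Idh2 rose (0.37 ± 0.05, adjusted p = 1.6e-10). Of 10 urea cycle and ornithine enzymes 6 fell and 1 rose, with Arg1 (arginase) at -0.33 ± 0.04 and Gls2 (glutaminase) at -0.45 ± 0.06 (adjusted p = 6.0e-11 and 2.7e-10). Of 16 ATP synthase genes 9 fell and 0 rose, by small amounts such as -0.11 for Atp5f1 and -0.17 for the inhibitor Atpif1. Other mitochondrial transporters split 5 and 5 of 17, with the serine transporter Sfxn1 at -0.22 ± 0.03 (adjusted p = 5.2e-10). Of 11 genes for carrier import, 1 rose (Agk) and 4 fell, among them Tomm70a, the receptor for carrier precursors, at -0.08 ± 0.02 (adjusted p = 0.0036).

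Of 12 heme and iron-sulfur genes 4 rose and 1 fell, with Iscu and Nfs1 at 0.17 ± 0.03 and 0.12 ± 0.03 (adjusted p = 1.6e-06 and 0.00017). Of 13 genes that work with the carriers of coenzyme A, folate and other cofactors 4 rose and 1 fell, the pantothenate kinase gene Pank3 at -0.27 ± 0.03 (adjusted p = 9.2e-10). Mitochondrial biogenesis regulators had 0 higher and 2 lower of 10, Ppargc1a at -0.37 ± 0.07 and Nrf1 at -0.09 ± 0.03 (adjusted p = 9.3e-06 and 0.015). Of 3 family members under other symbols, Mtch2, an outer membrane insertase, fell (-0.07 ± 0.03, adjusted p = 0.045). These lists are given by count, with 31.3% of all genes called as the background.

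Markers of other cells moved with diet too. Macrophage markers were higher for 7 of 12 and lower for 0, and their summed level ran from 189.1 to 1745 in control and from 96.45 to 2023 in HF/HS libraries. Stellate and matrix markers were higher for 5 of 11, with sums of 186.8 to 422.1 and 213.8 to 473. Bile duct markers were higher for 2 of 4 tested and endothelial markers for 2 of 9, both with 0 lower. Hepatocyte markers were higher for 2 of 12 and lower for 7. The only fat cell marker tested, Cfd, was higher, and fat cell marker sums had medians of 0.0985 and 0.325 on the control and HF/HS diets and reached 401.9 in 1 HF/HS male library. No lymphocyte or neutrophil (4 tested), muscle (1) or pancreas (2) marker passed, and 1 of 2 red blood cell markers did. The part of other cell types in the carrier differences was not tested.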

How the data were processed

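Liver RNA-seq values were used as deposited: 1 table with 120 library columns in an FPKM-like unit, which the authors had rescaled so that the 75th percentile lies between 9.983 and 10 in each library. The submitters' processing notes name TopHat2 2.1.1, Bowtie2 2.2.5.0, Cufflinks 2.2.1 and mm10, without their roles. Per the labels' protocols, RNA came from flash-frozen liver with 500 ng input, and both a total RNA and an mRNA kit are named. Which library received which kit, and the strand setting of the counting, are not given in the sources used here. Read totals are unknown, so relative depth came from the steps of low values. The 2 identical CC040 columns were left out.

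Rows whose mean over the columns reached 0.5 (13287 of 24883) were fitted with limma 3.58.1 in R 4.3.3 on log2(value + 1), with 40 group means over 118 libraries and a trended, robust prior. Differences are on this scale, which understates changes of low genes. Calls are at a Benjamini-Hochberg adjusted p under 0.05 over all genes tested. The fit was run on data simulated with independent noise in each gene and library. That simulation held no libraries that stand apart or vary together, so it says nothing about these. Strain F tests left out CC003 and CC060. The members and lists were chosen with earlier results of these data known. Values are given for all members by role and, by rule, for the members with the largest called changes per contrast (6 per direction for diet, 4 for the others), the lowest p-values in the F tests, the most abundant ones, and those at the edge of the minimum, plus members named to complete a list. Of each pathway list, up to 2 called genes with the lowest p were to be named; a few others were chosen after their values were seen. Start-site windows come from RefSeq (GRCm38.p6) and exon overlaps from GENCODE M21; 30 members had a window that could be shown. A few genes that enter the counts, 1 of them a member, are not reported here by name or plotted.

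Alternatives were other pseudocounts, filters and scalings, a plain prior, library weights, a replicate block, strains as units, all 120 columns, and leaving out strains or libraries. A pair of settings, without 1 or 3 libraries that stand apart, was added after seeing the data. By the rule that every pair must exceed 0.1, library numbers were not taken to pair the diets: deviations of same-numbered libraries correlated over 0.1 in 9 of 58 pairs, among them all 3 of CC041 females.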

Additional observations from a re-analysis of the deposited data

How the results depend on the processing

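Slc25a1, Slc25a44, Slc25a12, Slc25a15, Slc25a10, Slc25a42 and Slc25a21 passed the diet test over all strains in each of 37 other settings. Of the values for named members under other settings, 2389 stayed on their side of the threshold, 209 no longer passed and 25 newly passed. Of 2048 values with a direction, 12 had another sign. The only one in a called member was Slc25a5 under quantile normalization (0.01909 on the log2 scale), and the cause was not tested. The other 11 were diet differences of Slc25a17, Slc25a13 and Slc25a47, which did not pass in any setting. With each strain as 1 unit, which leaves fewer units, 9 members were called for diet over all strains, as were 15.8% of all genes. Members called were 0 in females, 4 in males, 11 by sex in control and 6 in HF/HS animals. With library weights they were 10 in females, 19 in males and 4 for the male minus female diet effect. That setting also called 22 members for diet effects that differ between strains and 74 member-strain pairs. Of all genes it called 47% for diet, and 801 of 13287 for the male minus female diet effect, against 114 in the main fit. Shares of all genes for the other counts are not given here. The cause was not tested.

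Leaving out a strain, or 1 library number in a sex and diet, gave 8 to 15 members for diet over all strains. Of all genes, 25% to 34.9% were called for diet in these settings. Such settings gave 0 to 7 in females, 7 to 12 in males and 0 to 1 for the male minus female diet effect. They gave 12 to 19 by sex in control and 10 to 17 in HF/HS animals, and 0 to 2 for diet effects that differ between strains. Strain differences were called for 27 to 34 members. Member-strain pairs were 9 to 23, the lowest without the second HF/HS library of males. Without the third CC060 control male library, and without the 3 libraries most often at an extreme, diet effects that differ between strains were called for 1 and 3 members. Both were chosen after seeing the data. Without a filter, 10 members passed for diet (20.5% of all genes). Apart from diet over all strains, shares of all genes for the counts in these settings are not given here.

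With a replicate block by library number, 13 members passed for diet (31.4% of all genes), 4 in females, 11 in males, 17 and 14 by sex, and 33 between strains. With a replicate block within strain and sex they were 14 (31.8% of all genes), 5, 11, 18, 14 and 33. The main fit called 31.3% of all genes for diet and 85.5% between strains. Shares of all genes for the other counts with a block are not given here. The labels do not say that a number pairs libraries, and the median correlation of same-numbered libraries was -0.01, though the 3 pairs of CC041 females had 0.3585, 0.2615 and 0.247, the highest of 58. Tests within each strain had no value where strains were left out or used as units. Low values in CC003 limit what can be seen there.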

Other observations

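Within groups, some abundant carriers varied together from library to library. Over 118 libraries, deviations from the group means on the log2 scale correlated at r = 0.744 for Slc25a39 and Slc25a11, 0.725 for Slc25a3 and Slc25a11, 0.716 for Slc25a39 and Slc25a3, 0.712 for Slc25a5 and Slc25a3 and 0.708 for Slc25a22 and Slc25a51. The lowest value was -0.556, for Slc25a39 and Slc25a36. The 703 pairs of members had a median of 0.03, and 18 pairs were over 0.6. The values of a pair share their library and its scaling, so these are descriptions with no test. Control male library 3 of CC060, which held the highest value of 9 members, was among the libraries. The highest control male values were 617 for Slc25a39, 471 for Slc25a3 and 135 for Slc25a11. HF/HS libraries reached at most 382, 308 and 80.5. How far r rests on such single values was not tested, and pairs of other genes were not correlated.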
